A study of Mus musculus with 4 samples.

Results

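The genes described here encode the proteasome, its assembly chaperones and its regulators, and were examined for N6-methyladenosine (m6A) in their mRNAs. They were chosen by symbol, as every protein-coding gene of GENCODE M21 whose symbol starts with Psma, Psmb, Psmc, Psmd, Psme, Psmf or Psmg and a digit. This gave 50 of 21951 protein-coding genes. One of them, Psmc3ip, encodes a meiotic recombination factor and is in the list by its symbol only. No measured value was used to choose the genes.

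The data are m6A meRIP-seq peaks, in which fragments of RNA bound by an antibody to m6A are compared with a background. The cells were c-Kit+ foetal liver cells of C57BL/6 mice, enriched on magnetic beads by Kit, a receptor that marks stem and progenitor cells. By the methods of the study they were Ythdf2CTL cells, which carry Ythdf2 fl/fl alleles (exon 2 flanked by loxP sites, with GFP after the start codon) and no Cre, so every transcript was measured with a GFP-YTHDF2 fusion protein in place of YTHDF2. The series has 4 samples, namely 2 biological replicates of m6A immunoprecipitation (IP) and 2 of input, and the labels give total RNA for IP and no age. The peak lists of the IP replicates were analysed, with 15635 peaks in replicate 1 and 14872 in replicate 2. There is 1 group, so no comparison between groups could be made and no p-value between groups is given.

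The proteasome is the complex that degrades proteins marked with ubiquitin. Its 20S core is a stack of alpha and beta rings, and the beta rings hold the protein-cutting sites. The 19S regulator caps the core, with a base of ATPases that unfold substrates and a lid that includes the deubiquitinase Psmd14. m6A is placed on nascent mRNA by the METTL3/METTL14 writer, mostly within the motif DRACH (R stands for A or G, D for any base but C, and H for any base but G) and most often near stop codons and in long exons, and YTHDF2 directs mRNAs that carry it to decay.

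A peak was given to a gene when its summit, the base of highest enrichment, lay in an exon of the gene. Of the 50 genes, 7 had a summit in both replicates, which is 14.0% (exact Clopper-Pearson 95% interval 5.82 to 26.7), against 30.9% of all protein-coding genes. In the list of replicate 1, 13 genes had a summit, where the share of all protein-coding genes was 34.4%. In that of replicate 2, 11 had one, against 33.5%. Both counts include the 7 genes, and 6 genes had a summit in replicate 1 only and 4 in replicate 2 only. A summit in either replicate was found for 17 genes (34%), against 37.1%. The share of proteasome genes with a peak was therefore lower than that of all genes when a peak was required in both replicates, and was near that of all genes when either replicate sufficed. The size of the first difference depended on the rule. With any overlap of a peak and an exon counted, 12 of the 50 genes had a peak in both replicates, against 32.6%. The intervals cover counting error only, and genes are not replicates of a condition.

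The sequences at the peaks found at one place in both replicates are given first, so that the motifs near peaks of first and last exons can be read beside the values. The members with the highest mean fold enrichment are shown, read from GRCm38 on the strand of the gene and written 5′ to 3′. For 3 peaks in first exons the bases around the middle of the summits of both replicates are given, with GGAC, the commonest form of the m6A motif, in capitals where it occurs. None of these 3 had a DRACH within 50 nt of the middle of the summits, although the replicate 2 summit of Psmd5, which was 60 nt from that of replicate 1, had one 34 nt away. The GGAC of Psme3 is followed by G and so is not a DRACH.
Psmd5, exon 1 of 10, chr2:34870880-34870908, minus strand: tgtgtcgctcctgcgggaggtggcgcggc
Psme3, exon 1 of 11, chr11:101316287-101316315, plus strand: gccggccggcacggagggaggGGACgagc
Psmd3, exon 1 of 12, chr11:98682628-98682656, plus strand: ccgcgctggtgtgcaggcccggctctgtg

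For the peaks in last exons the DRACH nearest to the summits is given in capitals, with 10 bases on either side. Each of these had 2 or 3 DRACH within 50 nt of the middle of the summits, so which adenosine was modified is not known from the peaks. The distance from the summit to the A of the motif in capitals was 0 to 44 nt.
Psmf1, exon 7 of 7, chr2:151717451-151717475, minus strand: tggactgacaGGACCagggccagtc
Psmf1, exon 7 of 7, chr2:151718193-151718217, minus strand: atactgcataGGACTacgggattcc
Psmg3, exon 3 of 3, chr5:139823849-139823873, minus strand: ggggcctttgAGACCcatctttcca
Psmd7, exon 7 of 7, chr8:107580826-107580850, minus strand: cttataaccaTAACTccgtgtgcca
Psmd5, exon 10 of 10, chr2:34852655-34852679, minus strand: agatctttggGAACTcaaattattt
Psmd7, exon 7 of 7, chr8:107581233-107581257, minus strand: tgaagggactGAACTccaagctcct

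Of 8 lid genes, 3 had a summit in both replicates (Psmd3, Psmd7 and Psmd12), which is 37.5% (exact interval 8.52 to 75.5) beside the 30.9% of all protein-coding genes. A summit in either was found for 6, beside 37.1% of all. With overlapping peaks required, the lid had 2 of 8, beside 30.5% of all. Psmd3, a scaffold subunit of the lid, had a peak in its first exon with a fold enrichment of IP over background of 7.26 in replicate 1 and 7.70 in replicate 2. The summits of that peak were 1 nt apart and lay 87 and 88 nt before the start codon (distances are from the first base of the codon). Psmd7, the partner of Psmd14 in the lid, had 2 peaks in its last exon. The peak near its stop codon had 2.40-fold and 2.06-fold enrichment, with summits 48 and 54 nt past the stop codon. The other peak of Psmd7 lay in the coding sequence, at 1.61-fold and 1.48-fold. These enrichments were low but rested on the highest read numbers among the genes, with 221 and 217 IP reads at the first summit over a background of 104.6 and 99.8 control reads. Control reads here and below are the background of MACS2 in units of reads. Values that are not whole are not counts of reads at the summit.

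Psmd12, another lid subunit, counted as having a summit in both replicates, but at different sites. In replicate 1 the summit lay in exon 2, with 2.69-fold enrichment and 51 IP reads. The overlapping peak of replicate 2, with 2.63-fold enrichment, had its summit 1 nt into intron 1 and did not count. The summit that counted in replicate 2 lay in an exon that is not on the transcript with the longest coding sequence, and rested on 8 IP reads. When the peaks of both replicates were required to overlap, 6 genes had a peak in both, against 30.5% of all protein-coding genes, and Psmd12 was not among them.

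The other lid genes with a summit had it in the first exon and in 1 replicate. Psmd14, the deubiquitinase that removes ubiquitin chains from substrates, had a 10.2-fold peak in replicate 1, with 27 IP reads over 2 control reads. Psmd8 had a 9.03-fold peak in replicate 2, with 73 IP reads over 6.80 control reads. Psmd13 had an 8.17-fold peak in replicate 2, with 47 IP reads over 4.6. None of these 3 overlapped any peak of the other replicate, although −log10 q was 20.1, 40.3 and 24.6. Psmd6 and Psmd11, also of the lid, had no summit in either replicate.

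In the base, none of the 6 ATPase genes Psmc1, Psmc2, Psmc3, Psmc4, Psmc5 and Psmc6 had a summit in an exon in either replicate, beside 37.1% of all protein-coding genes. The count of 0 of 6 allows a share of up to 50% (the limit for a count of 0 is given throughout as 3 genes of the total, and the exact interval reaches 45.9%). Of these genes only Psmc6 had an exon of 400 nt or more. Among all genes without such an exon, 8.59% had a summit in both replicates. Of the 3 other base subunits, Psmd2, a large scaffold, had a summit in its first exon in replicate 1 at 2.20-fold, with 105 IP reads over 54 control reads. Psmd1, the other large scaffold, and Psmd4, a ubiquitin receptor, had none.

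Of the 3 chaperones that assemble the base, Psmd5 had peaks at both ends of its mRNA in both replicates. The peak in its first exon had an enrichment of 8.20-fold in replicate 1 and 14.9-fold in replicate 2. The higher value stood over a background of 1.5 control reads, against 5 in replicate 1, while IP reads were 38 and 43. Its summits were also the farthest apart of the 9 shared pairs on one transcript, at 60 nt. The peak in the last exon of Psmd5 lay 67 and 68 nt before the stop codon, with 2.39-fold and 2.08-fold enrichment and 164 and 154 IP reads. Psmd9 and Psmd10, the other base chaperones, had no summit in an exon.

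In the 20S core, no gene had a summit in both replicates. The count was 0 of 8 for the alpha ring, which allows up to 37.5%, and 0 of 7 for the standard beta ring, which allows up to 42.9%. The share of all protein-coding genes was 30.9%. Psma5 and Psma6 of the alpha ring had a summit in the first exon in replicate 1, at 5.01-fold and 6.66-fold. The genes Psma1, Psma2, Psma3, Psma4, Psma7 and the testis form Psma8 had none. Psmb3 and Psmb4 of the beta ring had a summit in replicate 2, both in the first bases of exon 2, at 3.42-fold and 4.16-fold with 139 IP reads each. Each peak overlapped one of replicate 1, at 5.16-fold and 2.85-fold. The summits of those lay 9 nt and 1 nt from exon 2, in intron 1, and did not count. The genes for the catalytic subunits Psmb5, Psmb6 and Psmb7 had none, nor had Psmb1 and Psmb2.

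Of the 4 genes for the immune and thymus forms of the beta subunits, which replace the catalytic subunits in cells exposed to interferon and in the thymus cortex, 2 had a summit in replicate 1. The share of all protein-coding genes in that replicate was 34.4%. Psmb10 had 2.64-fold and 2.98-fold peaks in exons 5 and 2, and neither overlapped a peak of replicate 2. Psmb9 had a 5.56-fold peak with 24 IP reads, whose summit also lay in an exon of Tap1. It overlapped a 6.03-fold peak of replicate 2 with 37 IP reads. The summit of that peak lay in an exon of Tap1, 38 nt before the start of Psmb9, and did not count. The peak lists carry no strand, so the peak of Psmb9 cannot be given to one of the genes. Psmb8 and Psmb11 had no summit.

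Among the activators, Psme3, which encodes the nuclear activator PA28 gamma, had the strongest peak by −log10 q of all 50 genes. It lay in the first exon in both replicates, with 9.23-fold and 6.61-fold enrichment, −log10 q of 65.3 and 49.5, and 113 and 117 IP reads. Its summits lay 157 and 134 nt before the start codon. The interferon-induced activator genes Psme1, Psme2 and Psme2b and the large activator gene Psme4 had no summit. Psmf1, which encodes the proteasome inhibitor PI31, had 2 shared peaks in its 3′ UTR. The one with its summits 421 and 422 nt past the stop codon had 2.53-fold and 1.95-fold enrichment. The other, 1203 and 1217 nt past the stop codon, had 2.63-fold and 2.48-fold. Psmf1 also had a 4.01-fold peak in its first exon in replicate 1 only.

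Of the 4 chaperones that assemble the core, Psmg3 had a peak in its last exon in both replicates, with summits at one base 79 nt past the stop codon. Enrichment was 2.50-fold and 2.02-fold, with 161 and 143 IP reads. A second summit of Psmg3 in replicate 2, at 2.60-fold, also lay in an exon of Gm26938. Its peak overlapped a 2.61-fold peak of replicate 1, whose summit lay 9 nt from exon 2, in intron 1, and did not count. Psmg1, Psmg2 and Psmg4 had no summit, and neither had Psmc3ip.

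**Figure D1:**
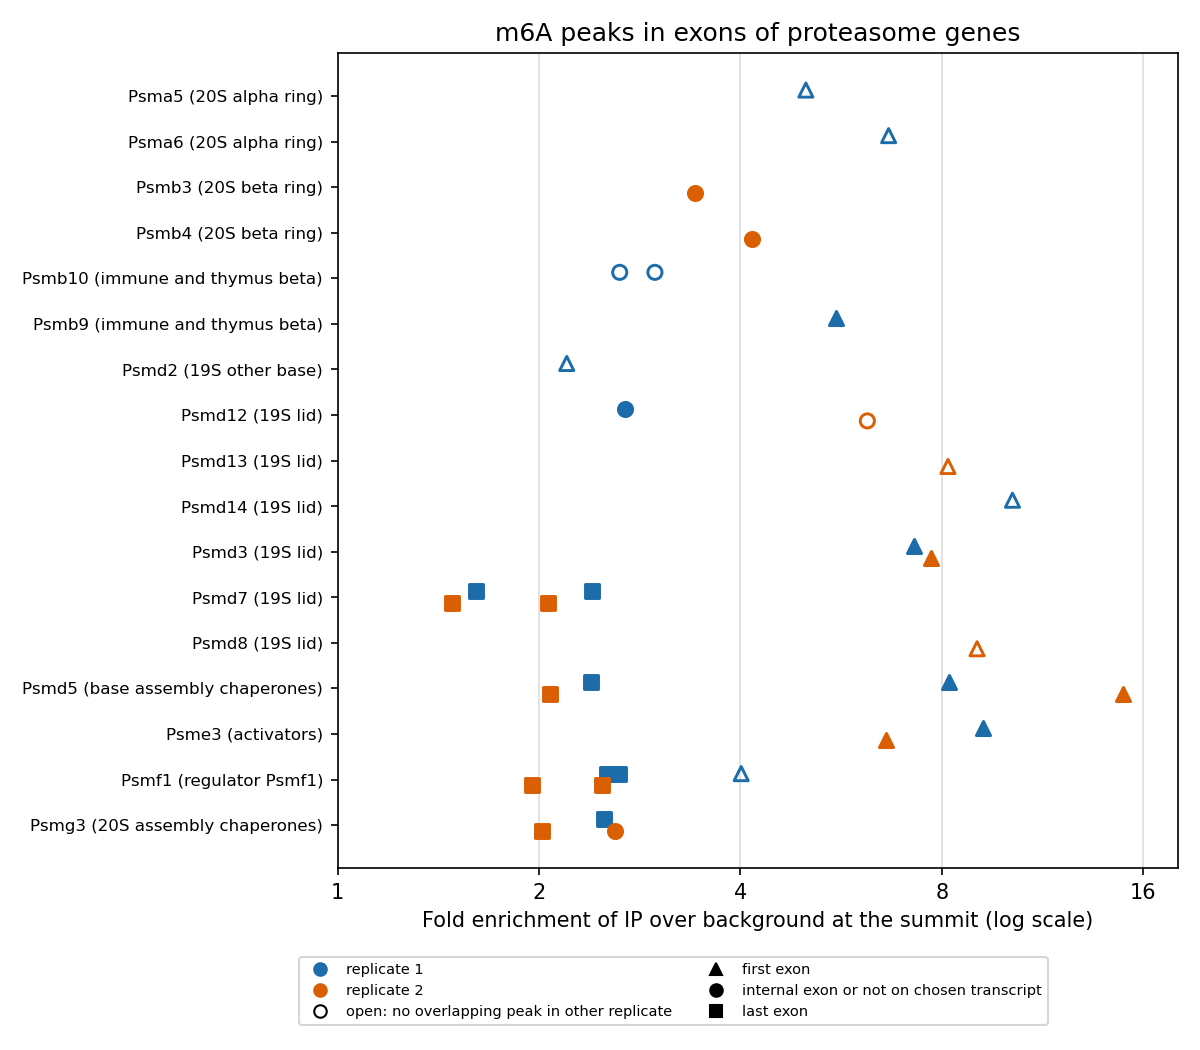
Fold enrichment of IP over background at the summit (log scale) for every peak with its summit in an exon of a proteasome gene, by gene and replicate. Peaks in last exons (squares) lay between 1.48 and 2.63 and were all found in both replicates, whereas peaks in first exons (triangles) lay between 2.20 and 14.9 and many were found in 1 replicate (open symbols).

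In all, 18 peaks of replicate 1 and 15 of replicate 2 had their summit in an exon of these genes. In replicate 1, 11 peaks (61.1%, exact interval 35.7 to 82.7) shared at least 1 bp with a peak of the other list, compared with 85.1% of all peaks in exons of protein-coding genes. In replicate 2, 12 (80.0%, 51.9 to 95.7) did, compared with 87.3%, which lies within the interval. The median fold enrichment was 2.84 and 3.42, compared with 4.11 and 4.29 for all such peaks. The median −log10 q was 16.7 and 17.1, compared with 16.6 and 16.1. The peaks of proteasome genes thus had lower folds at similar −log10 q. They rested on more reads, with a median of 76.5 and 89.0 IP reads over 20.5 and 31.0 control reads, while all peaks in exons had a median of 71 and 68 IP reads over 18 and 14.

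Positions along the mRNA were taken for summits on the chosen transcript of exactly 1 gene. There were 17 such summits in replicate 1 and 13 in replicate 2. First exons held 8 (47.1%) and 5 (38.5%) of these, compared with 12.5% and 13.2% of all placed summits. Last exons held 6 in each replicate (35.3% and 46.2%), compared with 58.6% and 58.0%. Within 200 nt of the stop codon lay 17.6% and 23.1%, compared with 30.7% and 29.8%, but within 100 nt the shares were 17.6% and 23.1% against 18.8% and 18%, so that difference depended on the window. Within 200 nt of the start codon lay 52.9% and 53.8%, compared with 14.7% and 15.4%. The share of summits in first exons and near start codons was thus higher for proteasome genes than for all genes in both replicates. The genes of the whole annotation with no exon of 400 nt or more had 40.1% and 38.4% of summits in first exons and 35.9% and 33.3% in last exons. Within 200 nt of the stop codon they had 38.2% and 35.1%, and within 200 nt of the start codon 54.7% and 59.1%. They were nearer to the proteasome genes than all genes were in the shares of first exons and near the start codon, and farther in the share near the stop codon. The sets are unlike in exon length. Of the 13 and 11 proteasome genes with a summit in replicates 1 and 2, only 4 and 2 had no exon of 400 nt or more. All last-exon summits lay in genes with such an exon.

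**Figure D2:**
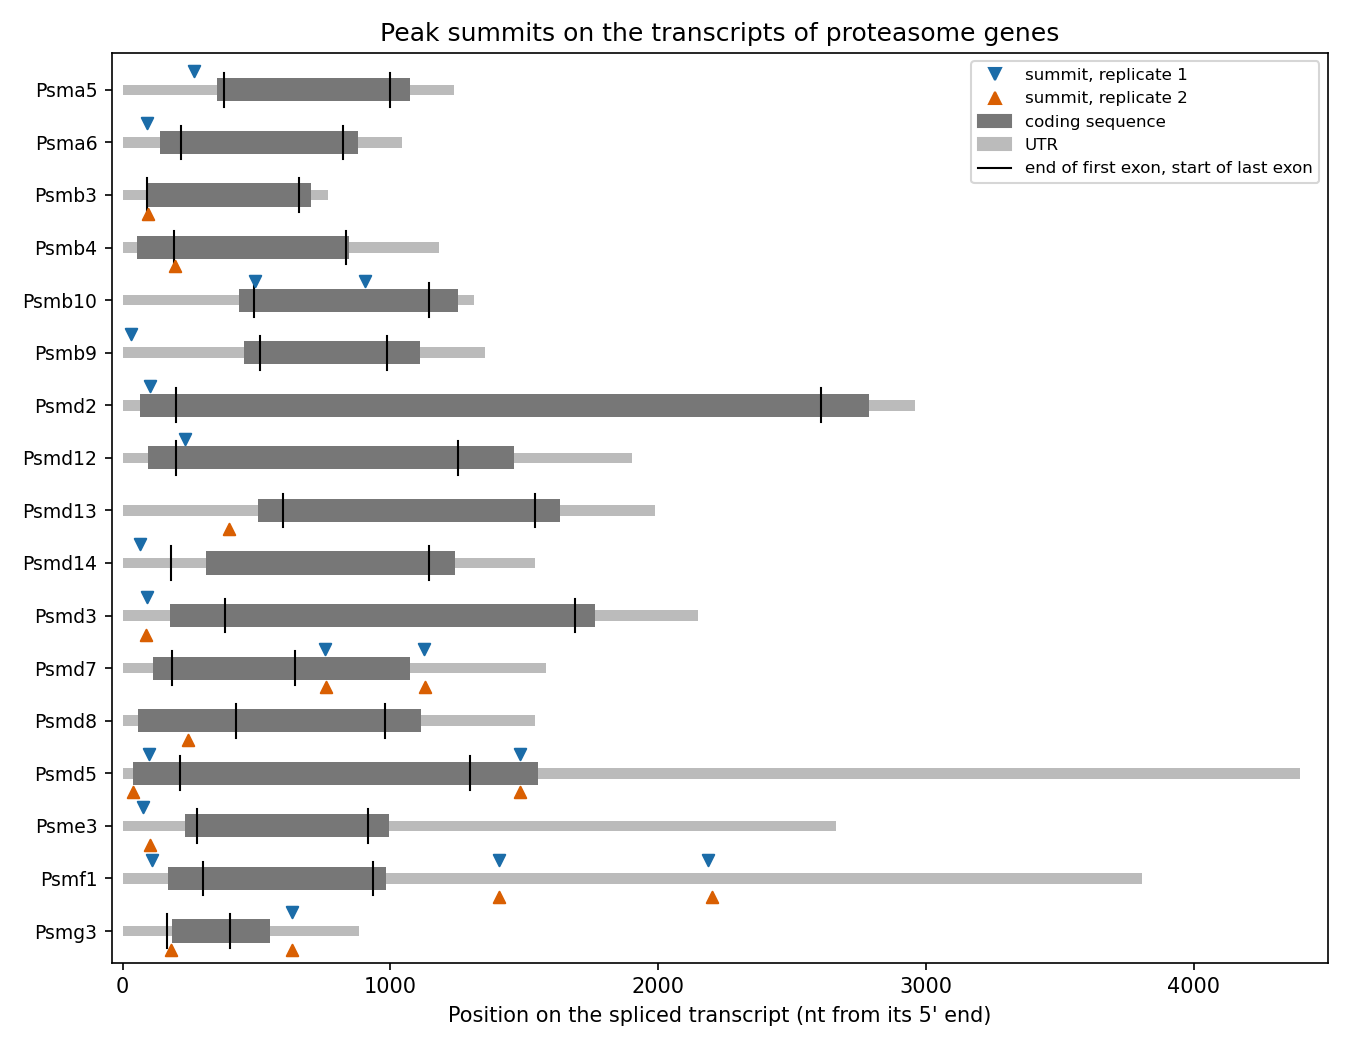
Summits in replicate 1 (above) and replicate 2 (below) on the chosen transcript of the 17 genes with a summit in either replicate, in nt from the 5′ end of the spliced transcript, with coding sequence as thick bars and the inner ends of the first and last exon as vertical lines. Summits lie in the first exon or in exon 2 except for those in the last exon of Psmd7, Psmf1, Psmg3 and Psmd5 and one in exon 5 of Psmb10. The summits of Psmb9 and the exon 2 summit of Psmg3 also lie in exons of other genes, and the replicate 2 summit of Psmd12 is not on its chosen transcript.

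**Figure D3:**
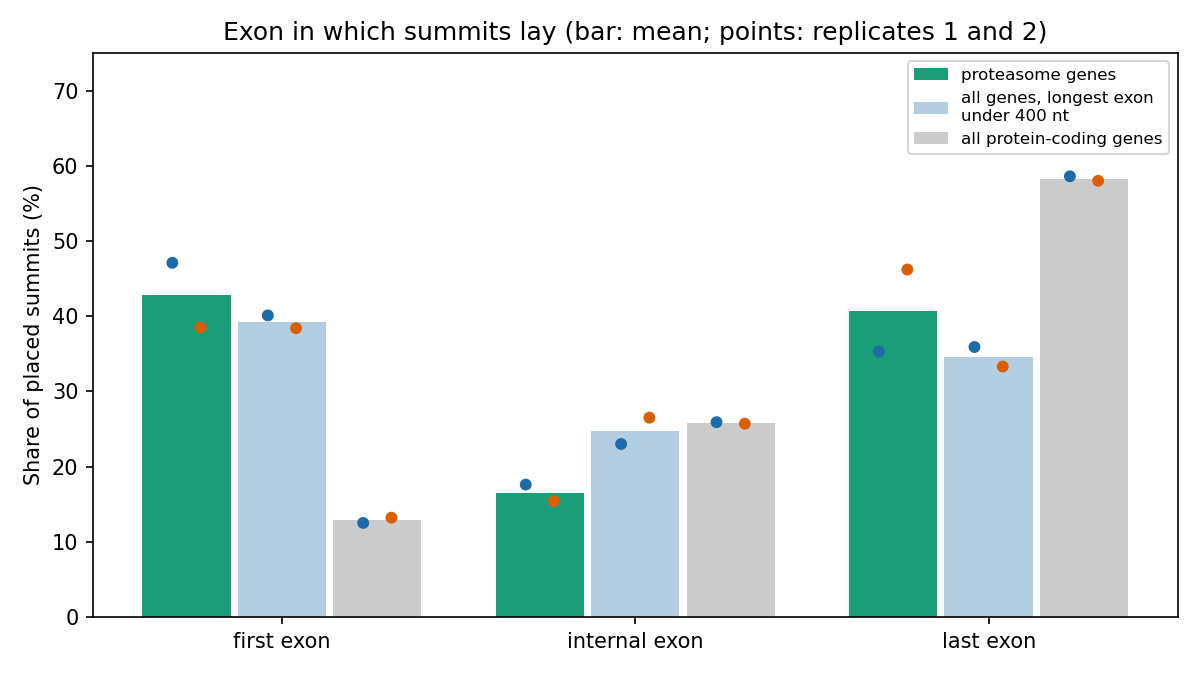
Share of placed summits in first, internal and last exons, as the mean (bar) and the values of replicates 1 and 2 (blue and orange points), for proteasome genes, all genes whose longest exon is under 400 nt, and all protein-coding genes. First exons hold 47.1% and 38.5% of the summits of proteasome genes and 12.5% and 13.2% of all summits. Most proteasome genes with a summit had an exon of 400 nt or more, unlike the second set.

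The first-exon and last-exon peaks of these genes differed in enrichment, background, sharing and motif. The split was made after the values were seen, and is a description. In first exons the fold was 2.20 to 10.2 in replicate 1 (median 6.96) and 6.61 to 14.9 in replicate 2 (median 8.17). In last exons it was 1.61 to 2.63 and 1.48 to 2.48. The ranges overlapped in replicate 1 through Psmd2 alone and did not overlap in replicate 2. The background was 2 to 54 and 1.5 to 16 control reads in first exons and 25 to 120 and 22 to 106 in last exons. Over all protein-coding genes the median fold was 5.64 and 6.21 in first exons and 3.85 and 3.98 in last exons, over 7 and 5 control reads and 22 and 17, so both differences ran the same way there. The last-exon peaks of proteasome genes had more IP reads, with a median of 162.5 and 148.5 against 65.5 and 73.0 in first exons, and still a lower fold.

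All 6 last-exon peaks of each replicate were shared, whereas 3 of 8 and 3 of 5 first-exon peaks were. Among all protein-coding genes, 73.2% and 72.4% of first-exon peaks were shared. Of first-exon peaks with −log10 q of at least 20, proteasome genes had 5 in each replicate, of which 3 were shared in each (Psmd3, Psmd5 and Psme3). Among all protein-coding genes 90.8% and 88.7% of such peaks were shared. All last-exon summits of proteasome genes had a DRACH within 50 nt, and 4 of 8 and 1 of 5 first-exon summits did. For all protein-coding genes the shares in first exons were 74.8% and 75%, and in last exons 96.3% and 96.5%. These are small counts, and a search of letters does not show where the modification lies.

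**Figure D4:**
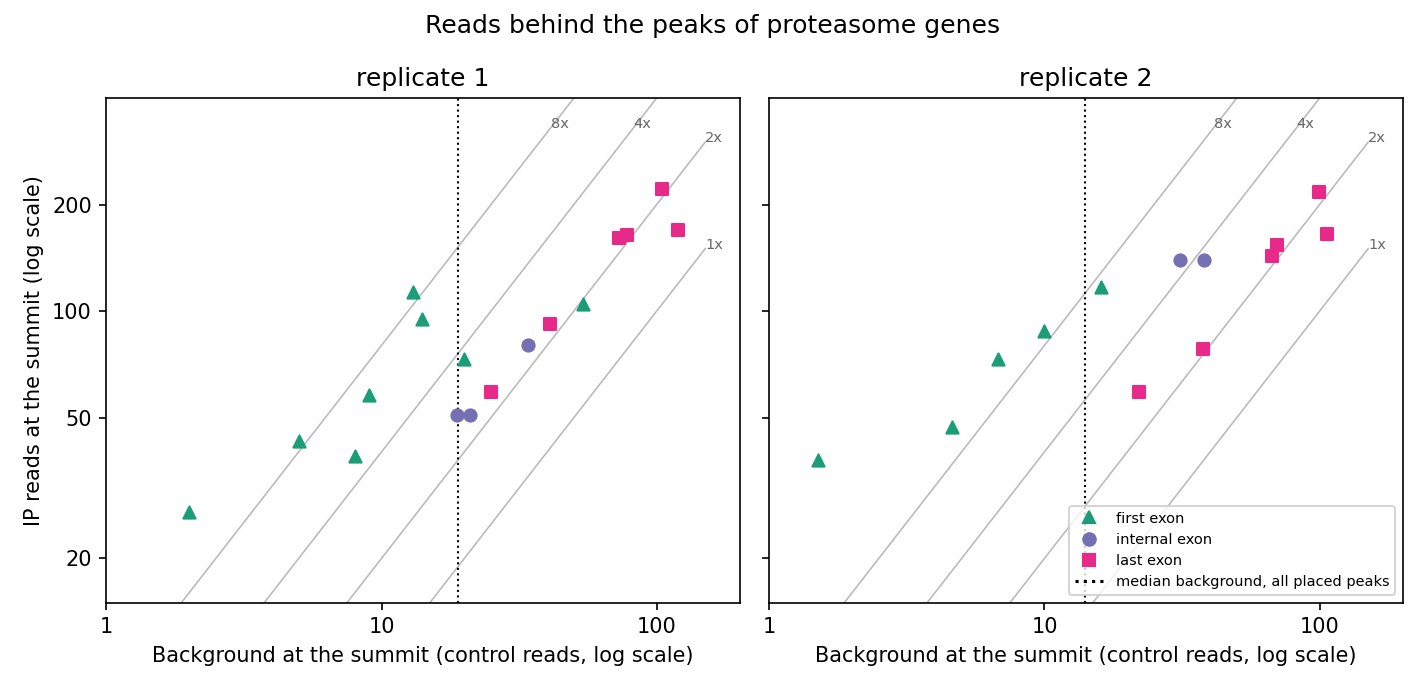
IP reads at each placed summit of proteasome genes (vertical, log scale) against the background in control reads (horizontal, log scale), one panel per replicate. Grey lines mark ratios of reads, which differ from the deposited fold enrichments. Dotted lines mark the median background of all placed peaks (19 and 14 control reads). Last-exon peaks (squares) lie right of the dotted line in both panels, and most first-exon peaks (triangles) lie left of it.

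GGAC was not rare in these mRNAs. The chosen transcripts held 4.35 GGAC per kb, compared with 4.09 for all protein-coding genes, and each held at least 1. GGAC occurred within 200 nt of the stop codon in 40 of 50 transcripts (80.0%), compared with 75.9% of all, and in 28 of the 33 transcripts without a summit. Within 50 nt of the placed summits it occurred for 58.8% and 61.5%, compared with 56.1% and 56.0% of all placed summits. Within 25 nt it occurred for 17.6% and 30.8%, compared with 34.4% and 35.0%. DRACH, which includes most forms of GGAC, occurred near 76.5% and 61.5%, compared with 93.3% in each replicate.

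The mRNAs were shorter in their last exon. The median last exon was 357.5 nt, compared with 1125 nt for all protein-coding genes, and 42.0% had a last exon of 400 nt or more, compared with 80.5%. No proteasome gene had an internal exon of 400 nt or more, and the longest had 307 nt, in Psmb5. Of all protein-coding genes, 16.9% had an internal exon of 400 nt or more. The median transcript was 1435 nt, compared with 2543 nt.

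Genes were therefore divided by their longest exon. Of 26 proteasome genes whose longest exon was under 400 nt, 0 had a summit in both replicates, which allows up to 11.5% (the exact interval in the plot by longest exon reaches 13.2%), compared with 8.59% of all genes of that class. A summit in either replicate was found for 6 of them (23.1%), beside 37.1% of all protein-coding genes of any exon length. The share in either replicate was not computed for all genes of that class. Of 24 genes with an exon of 400 nt or more, 7 had one in both (29.2%, exact interval 12.6 to 51.1), compared with 34.8% of all. Of 29 genes with a last exon under 400 nt on a transcript of several exons, 0 had a summit in that exon in either replicate, which allows up to 10.3%, compared with 4.58% of all in either and 2.59% in both. Of 19 with a longer last exon, 4 had one in both replicates (21.1%), compared with 28.1%. They were Psmd5, Psmd7, Psmf1 and Psmg3, and no other gene of that class had one in either replicate, compared with 33.2%. In first exons 3 of 48 genes had a summit in both replicates (6.25%), compared with 4.44% of all, and 10 in either (20.8%), compared with 8.35%. Whether exon length bears on the placement of peaks in these genes was not tested.

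Other genes for large complexes gave different shares. Of 83 genes for proteins of the cytosolic ribosome, 9 had a summit in both replicates (10.8%). The count was 15 of 63 for subunits of the respiratory chain (23.8%) and 46 of 78 for proteins of the mitochondrial ribosome (59.0%). Among genes whose longest exon was under 400 nt, the shares were 10%, 17.1% and 35.0%, and for the proteasome 0 of 26. The exact interval of the proteasome genes over all lengths, 5.82 to 26.7, overlapped those of the cytosolic ribosome (5.08 to 19.6) and of the respiratory chain (14.0 to 36.2). With a summit in either replicate, the shares were 34% for the proteasome, 13.3% for the cytosolic ribosome, 41.3% for the respiratory chain and 70.5% for the mitochondrial ribosome.

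**Figure D5:**
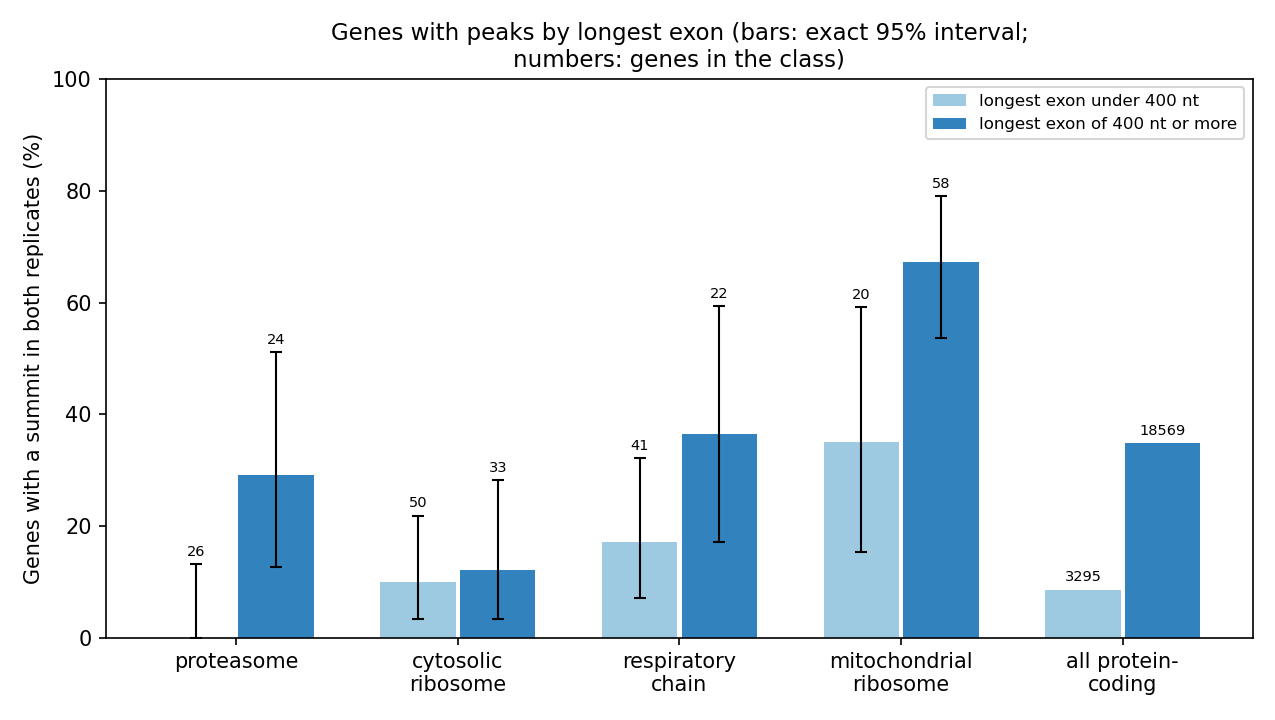
Share of genes with a summit in both replicates, by the length of the longest exon, for proteasome genes, 3 other groups of genes for complexes, and all protein-coding genes. Error bars are exact 95% intervals and the numbers above the bars are genes. For proteasome genes the shares are 0 of 26 and 7 of 24, compared with 8.59% and 34.8% of all genes.

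Partners of the proteasome that the symbol rule leaves out were counted in the same way, in small lists. Of 7 other subunits and assembly factors, 2 had a summit in both replicates, and these were the ubiquitin receptor Adrm1 (5.47-fold and 5.71-fold) and Txnl1. The assembly factor Pomp and the small subunit Sem1 had none. Of 8 shuttle factors and segregase genes, which bring ubiquitinated proteins to the proteasome, 5 had one in both, among them the segregase Vcp at 9.23-fold and 7.84-fold. Of 5 genes for transcription factors of subunit genes, 4 had one in both, among them Nfe2l1, which raises the transcription of proteasome genes when the proteasome is inhibited, at 4.53-fold and 5.56-fold. The background share for these lists is that of all protein-coding genes, 30.9%.

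The summit rule left some peaks at the edges of exons uncounted. Psmb3 and Psmb4 each had a peak in replicate 1 that overlapped the one counted in replicate 2, but with its summit 9 nt and 1 nt into intron 1. These had 5.16-fold and 2.85-fold enrichment and 144 and 124 IP reads. When any overlap of a peak with an exon was counted, 12 genes had a peak in both replicates, against 32.6% of all protein-coding genes, with Psmb3, Psmb4, Psmb9, Psmd1 and Psmd10 added. With the exons of the comprehensive annotation there were 9, against 31.6% of all, with Psmb4 and Psmd1 added. With a minimum fold enrichment of 4, there were 3 (Psmd3, Psmd5 and Psme3), compared with 16.9% of all protein-coding genes under that minimum.

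Near-identical copies touched 1 of the peaks. At 98% identity over 100 nt or more, 7 of the 50 transcripts matched another place in the genome. Among them were Psma3, Psmb5, Psmb11, Psmd11, Psme2 and Psme2b, which had no summit in either replicate. For Psmb5, 898 nt were aligned at 99.0% on a transcript of 899 nt, and for Psme2 794 nt at 99.4% on 962 nt. Whether the copies bear on the lack of a summit in these genes was not tested. The summit of Psma5, at base 268 of its transcript, lay in such a stretch, which starts at base 262, so part of the peak lay outside it. The stretch is shared with the processed pseudogene Gm8394 on chromosome 10 at 98.6% identity. In replicate 1 the peak of Psma5 had 39 IP reads over 8 control reads and that of Gm8394 had 38 over 8. In replicate 2 Gm8394 had a peak of 40 IP reads over 8 and Psma5 had none. How reads were assigned between these loci was not tested, and the peak of Psma5 is given as uncertain. A copy of Psmd11 on chromosome 2, in A730017L22Rik, had an 8.90-fold peak in replicate 2, while Psmd11 itself had none.

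The absence of a peak does not show that m6A was absent, since the library totals and the expression of genes are not known from the peak lists. Where proteasome genes had placed peaks, the background at 10 of 17 summits in replicate 1 and 9 of 13 in replicate 2 was above the median of all placed peaks. PCR reads without molecular identifiers are not independent molecules. Of the markers of the cell type, 5 of 7 stem and progenitor genes had a summit in both replicates (Gata2, Runx1, Tal1, Cd34 and Meis1), while Kit itself and Myb had none. Of the markers of other cells, 2 of 4 erythroid, 2 of 3 myeloid and 2 of 5 hepatocyte genes (Apoa1 and Hnf4a) had one, in lists too small to set apart from the 30.9% of all protein-coding genes. A peak shows that a transcript was present, and the part of other cell types in the peaks of proteasome genes was not tested.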

How the data were processed

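m6A meRIP-seq of 2 IP replicates was used, and the input samples have no file analysed here. Reads had been aligned by the authors with HISAT2 to GRCm38 (mm10) and peaks called with MACS2 2.1.1.20160309 and the nomodel flag, one list per replicate. The calling threshold, control library and effective genome size are not given in the sources used here. The smallest −log10 q in the deposited lists was 1.31 and 1.30. The deposited fold enrichment is the ratio of IP to local background at the summit, with a constant added to both and the larger library scaled down. It therefore differs from the ratio of the printed reads. The −log10 p and −log10 q are those of MACS2, the deposited score is a scaled −log10 q with its decimals dropped, and the deposited offset gave the summit.

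Summits were intersected with exons of the basic transcripts of GENCODE M21, on the same build. Positions refer to the transcript with the longest coding sequence (21864 genes), with windows of 200 nt around start and stop codons and 50 nt around summits for motifs. All 50 coding sequences were followed by a stop codon, and 2000 of 2000 simulated positions were placed back on their base. IP reads and control reads were computed from the deposited fold and −log10 p by the formulas of MACS2. The control reads are the background that MACS2 used, and are whole where that was the pileup at the summit itself. For 100% of peaks a whole number of IP reads matched within 0.001 in −log10 p, and for 0.838% and 0.565% on a shifted grid. The method was tested on simulated data, with 100% of 1982 and 1983 peaks recovered. Over all peaks the median was 57.0 IP reads, over 13.0 and 10.00 control reads. Copies were found with blastn 2.17.0, at 98% identity over at least 100 nt.

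The other software was Python 3.11.15, numpy 2.4.6, scipy 1.17.1 and matplotlib 3.10.9. Every gene of the symbol rule is named. Those with shared peaks have values, and sequences are shown for those with the highest mean fold. Members follow from the symbol rule, which uses no measured value. The rule, lists and alternatives were nevertheless chosen with earlier results of these data known. The division of exons by length at 400 nt, of peaks into first and last exons, and of strong peaks at −log10 q of 20 was made after values were seen. Shares and medians are descriptions without tests.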

Additional observations from a re-analysis of the deposited data

Results flagged for a closer look

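Some peaks at proteasome genes were not part of the counts of genes because their summit lay outside every exon of the basic annotation, 6 in replicate 1 and 6 in replicate 2. They stand here as signal outside the main measurement, and the input samples were not analysed here. Those with the highest fold were just before the annotated start of a transcript. Psmd1, a scaffold of the base, had a peak of 12.6-fold and 14.0-fold enrichment in the replicates, with 58 and 55 IP reads over 4.20 and 2.80 control reads and its summit 11 and 10 nt before the start of the chosen transcript. Psmd10, the chaperone also known as gankyrin, had a peak of 13-fold and 8.97-fold, with its summit 59 nt before the start in both replicates. Their folds lay between 8.97 and 14.0, beside 6.61 to 14.9 for the first-exon peaks of Psmd5 and Psme3, and neither gene counted as having a summit. With the comprehensive annotation the summits of Psmd1 lay in an exon and those of Psmd10 did not.

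The others included 4 summits in replicate 1 (Psmb3, Psmb4, Psmb7 and Psmc6) and 2 in replicate 2 (Psmd12 and Psmd9) within intron 1, at most 36 nt from exon 2, and each of these peaks reached into the exon. By −log10 q the peak of Psmb3 in replicate 1 was the highest, at 51.0 with 144 IP reads, compared with 43.9 for Psmd1. Of the ATPase genes, Psmc6 had its only peak here, at 2.48-fold in replicate 1 with its summit 2 nt from exon 2. In replicate 2, Psmd5 had 2 weak peaks of 10 IP reads each before its start. Why summits lay beside exon 2 was not tested.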

How the results depend on the processing

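The count of 7 genes with a summit in both replicates was 9 with comprehensive exons (Psmb4 and Psmd1 added, all genes 31.6%) and 12 with any overlap of peak and exon (all genes 32.6%). It was 6 on the chosen transcript (all genes 29.8%) or with overlapping peaks (all genes 30.5%), and 3 with a minimum fold enrichment of 4 (all genes 16.9%). It was 7 with a minimum −log10 q of 3 or 5, with summits in exons of 1 gene, and without Psmc3ip, where all protein-coding genes gave 30.2%, 28.9%, 29.1% and 30.9%. Counted in one list alone, it was 11 without replicate 1 and 13 without replicate 2. The share of peaks shared (mean 70.6% ± 13.4, SD, n = 2) was 46.4% with a minimum fold of 4 and 61.1% to 80.0% with one replicate left out. The share of summits at the stop codon (20.4% ± 3.84) was 30.1% with a window of 400 nt (all genes 43.0% and 42.2%), 20.4% with 100 nt (all genes 18.8% and 18%), where it was no longer below all genes on average, and 17.6% to 23.1% with one replicate left out. The share with GGAC nearby (60.2% ± 1.92) was 24.2% within 25 nt (all genes 34.4% and 35.0%), 73.8% within 100 nt, 56.7% with a minimum −log10 q of 5, and 58.8% to 61.5% with one replicate left out. The median fold (3.13 ± 0.411) was 2.58 over shared peaks and 2.84 to 3.42 with one replicate left out. The cause of these moves was not tested. No paired analysis was possible because the results come from no test and the input samples were not analysed here. With 2 replicates, 50 genes and 33 peaks, the intervals are wide, and peaks of few reads, such as that of Psmd12 in replicate 2, limit what the counts show.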
